A study of Homo sapiens with 6 samples.

Results

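The genes described here are the 5 subunits of the transcription factor NF-kB (NFKB1, NFKB2, RELA, RELB and REL), 3 genes of the inhibitory IkB proteins (NFKBIA, NFKBIB and NFKBIE), and 2 further feedback regulators of the pathway (TNFAIP3 and BIRC3). They were taken from the deposited gene table by symbol, and each of the 10 symbols matched 1 of its 35993 genes. RNA was sequenced from MIA PaCa-2, an established human pancreatic carcinoma cell line, in 3 untreated libraries and in 3 libraries of cells exposed for 48 h to 4 µM rhCYGB. This is recombinant human cytoglobin, a heme protein, which carried a histidine tag, was made in Escherichia coli and was added to the cells from outside. The authors report that the purified protein was free of endotoxin. The labels name no difference between the groups other than rhCYGB. For the untreated libraries they say only Control and give no hours, so other differences in handling cannot be told apart from rhCYGB. All libraries come from this 1 cell line. Nothing in the labels says that the 3 libraries of a group were separate cultures, so the p-values measure only the spread between these libraries, which may be technical.

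NF-kB is a dimer of Rel-family proteins that waits in the cytoplasm, bound by IkB. In the canonical branch, signals such as TNF or interleukin 1 activate the IKK kinases, IkB is degraded, and dimers such as RELA with the p50 product of NFKB1 enter the nucleus. In the noncanonical branch, the kinase NIK, encoded by MAP3K14, drives the processing of the NFKB2 product p100 to p52, which pairs with RELB. NF-kB induces the genes of its own inhibitors, so that its activity is followed by newly made IkB alpha (NFKBIA) and A20 (TNFAIP3), and several subunit genes are among its targets too. RNA levels report on none of the steps that take place on the proteins.

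All 10 genes rose with rhCYGB, by 1.27-fold (NFKB1) to 5.53-fold (TNFAIP3), and in none of them did the 3 treated libraries overlap the 3 untreated ones. This was a comparison in which most genes moved. Of 14728 genes tested, 77.6% were called by the quasi-likelihood test of edgeR (Benjamini-Hochberg adjusted p below 0.05), with 39.0% of the tested genes higher and 38.6% lower. The groups did not overlap in 79.5% of the tested genes, with rhCYGB above in 39.8%. Calls of single genes are to be read against these shares, and the sizes are given beside them. The 10 genes were chosen with earlier results of these data known, so contrasts with all genes only describe a chosen set. The median log2 fold change was 1.03 over the 10 genes and -0.0046 over all genes tested. At least 2-fold higher were 6 of the 10, a size that 12.4% of tested genes reached upwards (14.7% downwards). That count was 3 (RELB, NFKBIB and TNFAIP3) when libraries were scaled by upper quartiles or total counts or when FPKM values were tested, which lowered the median over all genes by 0.14 to 0.16 on the log2 scale in 3 of these 4 fits.

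**Figure D1:**
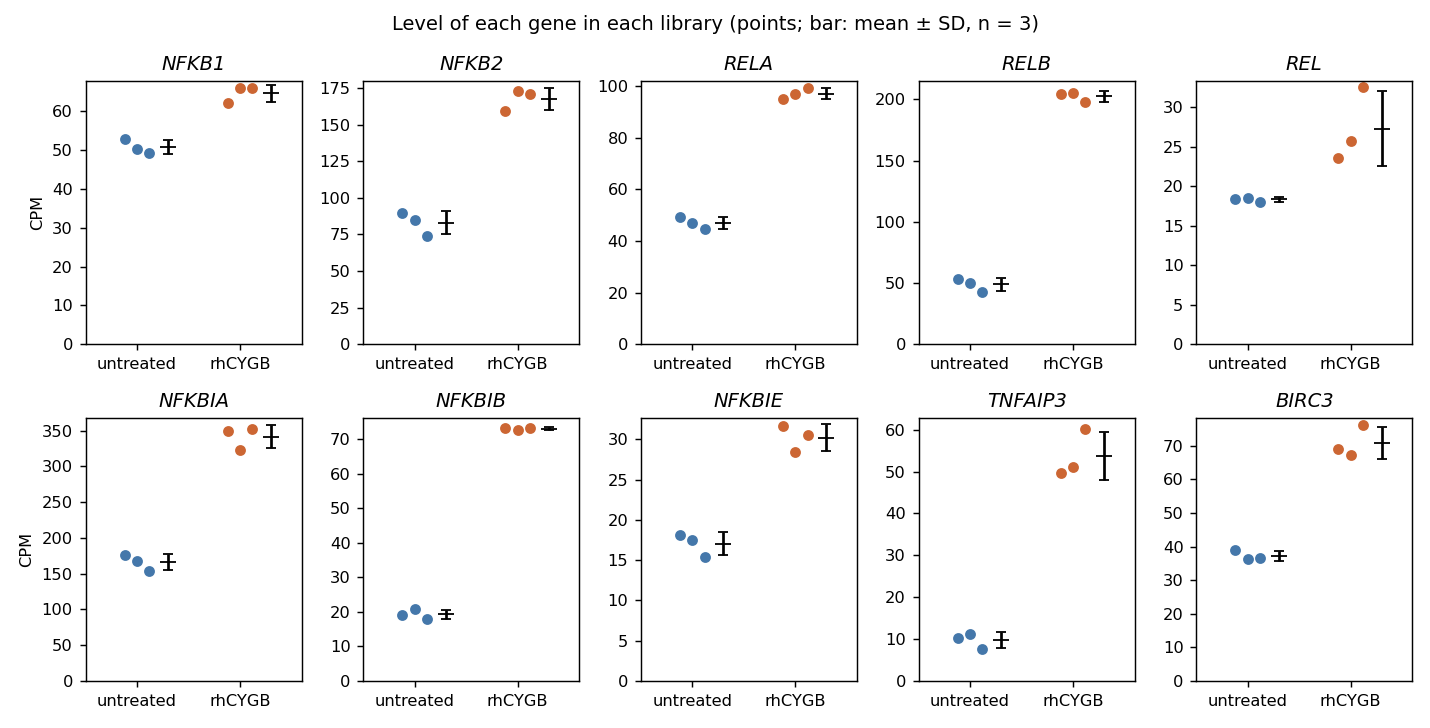
Level (CPM, counts scaled to library size, vertical axes from 0, one panel per gene) of the 10 genes in the 3 untreated and 3 rhCYGB libraries, with points for libraries and bars for mean and SD. In each panel the treated points lie above the untreated points, with the narrowest gap in CPM for REL (18.5 against 23.6) and a wide one for TNFAIP3 (11.2 against 49.7).

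The libraries held 34838399 to 42271299 counts on genes. Each of the 10 genes had 308 counts or more in each library, the lowest being TNFAIP3 in untreated library 3. CPM values, counts scaled to library sizes that were adjusted by TMM factors, compare 1 gene between libraries and have a floor of 3 counts at 0.0669 to 0.0902 CPM. FPKM values are also divided by transcript length and are used where genes are set beside each other. Across all genes tested no library stood apart within its group, the lowest correlation within a group being 0.987 and the highest between groups 0.929. The 10 genes together were lowest in untreated library 3, with a summed level of 460 CPM against 527 and 505 CPM in untreated libraries 1 and 2. Of 7 markers of carcinoma epithelium, the keratins KRT8, KRT18 and KRT19 were abundant, whereas EPCAM was at 0 counts in every library and CDH1 had 2 counts in 1 library.

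The promoters are shown first, since the pathway is known for feedback through kappa B sites, the short DNA elements that NF-kB binds. The RefSeq table of GRCh38.p14 held the 250 bases before 13 starts of 8 of the genes (RELB and NFKBIE were not in it). In the 3 whole windows, capitals mark matches on either strand to the kappa B consensus or to a shorter pattern of it, GGNNTTTCC. The first is TNFAIP3, the gene with the largest fold change (chr6:137867009-137867258, plus strand), the next NFKBIA, the most abundant (chr14:35404750-35404999, minus strand), and the last is start 1 of NFKB1, the gene with the smallest change (chr4:102501109-102501358, plus strand). Each is written 5′ to 3′ on the gene's strand and ends at the base before the start.
TNFAIP3: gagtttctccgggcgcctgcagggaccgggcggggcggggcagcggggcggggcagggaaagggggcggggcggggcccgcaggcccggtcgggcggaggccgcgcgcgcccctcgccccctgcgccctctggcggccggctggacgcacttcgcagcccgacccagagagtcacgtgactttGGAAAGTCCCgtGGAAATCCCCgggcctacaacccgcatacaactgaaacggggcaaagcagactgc
NFKBIA: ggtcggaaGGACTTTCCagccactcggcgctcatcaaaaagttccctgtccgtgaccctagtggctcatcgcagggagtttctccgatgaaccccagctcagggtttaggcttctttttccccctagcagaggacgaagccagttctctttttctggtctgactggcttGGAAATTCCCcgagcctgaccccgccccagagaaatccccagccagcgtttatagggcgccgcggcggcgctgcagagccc
NFKB1: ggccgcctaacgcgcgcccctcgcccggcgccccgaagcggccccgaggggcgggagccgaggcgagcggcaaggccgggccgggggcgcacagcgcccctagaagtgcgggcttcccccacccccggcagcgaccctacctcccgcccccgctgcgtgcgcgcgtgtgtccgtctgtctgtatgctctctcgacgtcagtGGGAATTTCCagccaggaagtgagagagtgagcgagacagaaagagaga

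TNFAIP3 held a pair of consensus matches 67 to 58 and 55 to 46 bases before its start, NFKBIA 1 consensus match 81 to 72 bases before (the capitals 242 to 234 bases before match the shorter pattern alone), and NFKB1 1 match 49 to 40 bases before. Matches in 4 other genes are given as 30 bases around each match, to show how the core letters vary between genes that all rose, and there capitals mark the consensus. They come from starts 2 and 3 of NFKB2 with 2 windows each (chr10:102394462-102394491, chr10:102394490-102394519, chr10:102395519-102395548 and chr10:102395674-102395703), from REL (chr2:60881518-60881547), from start 2 of NFKBIB (chr19:38899932-38899961) and from BIRC3 with 2 windows (chr11:102317275-102317304 and chr11:102317339-102317368), all on the plus strand.
NFKB2, start 2: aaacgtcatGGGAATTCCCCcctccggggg
NFKB2, start 2: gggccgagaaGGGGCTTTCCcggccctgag
NFKB2, start 3: aacccccaccGGGGCTTCCCggattctcct
NFKB2, start 3: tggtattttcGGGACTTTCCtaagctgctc
REL: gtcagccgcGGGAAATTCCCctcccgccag
NFKBIB: ggcgtggtgGGGAATTTCCCgcagggcgga
BIRC3: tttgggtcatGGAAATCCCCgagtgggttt
BIRC3: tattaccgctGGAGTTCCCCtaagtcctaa

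Of the 8 genes with a window, 7 held a consensus match on either strand, and RELA held none in its 2 windows. Matches were in 8 of the 13 windows, against 5.21% of all 35116 windows in the table, and per gene in 6.28% of all 27305 genes and 8.18% of the 10724 tested genes that could be matched to it. A shorter pattern, GGNNTTTCC or its reverse complement GGAAANNCC, which overlaps most consensus matches, was also in 8 of the 13 windows and in 7 of the 8 genes, against 5.48% of all windows and 7.96% of tested genes. Several of the 10 are known NF-kB targets, so the shares are a description of a chosen set. A match is a run of letters in a window, and binding was not measured.

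**Figure D2:**
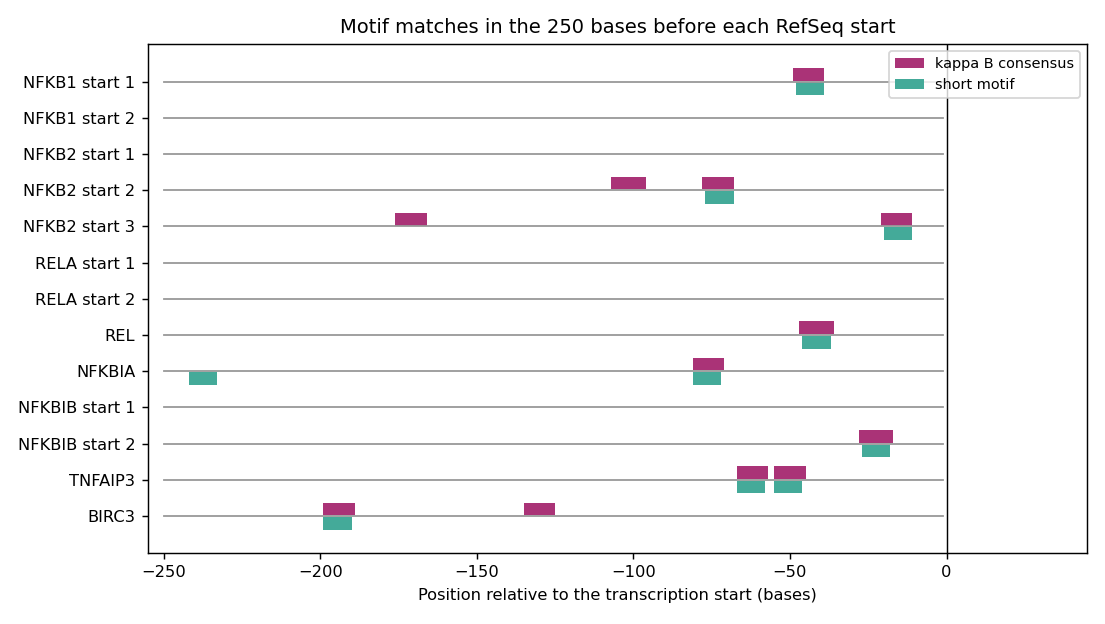
Matches to the kappa B consensus and to the shorter pattern in the 250 bases before each of 13 RefSeq starts of 8 genes (horizontal axis, bases relative to the start). Matches lie within 67 bases of the start in NFKB1, REL, NFKBIB and TNFAIP3, whereas those of BIRC3 lie 199 to 126 bases before it, and both RELA windows hold none.

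Among the subunits, RELB changed most. RELB, the transactivating partner of p52 in the noncanonical branch (gene ID 5971, chr19:45504722-45541450 in the deposited table, whose genome build is not named), was at 53.5, 50.3 and 42.8 CPM in untreated libraries 1, 2 and 3 and at 204, 205 and 198 CPM in rhCYGB libraries 1, 2 and 3. The lowest treated library was thus far above the highest untreated one. The log2 fold change was 2.05 ± 0.062 (SE, n = 3 per group, 95% interval 1.92 to 2.18, edgeR adjusted p = 1.83e-13), larger than that of 97.1% of all genes tested.

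NFKB2, which encodes p100 and p52 (gene ID 4791, chr10:104153867-104162286 in the deposited table), had 89.8, 85.1 and 74.2 CPM untreated and 159, 173 and 171 CPM with rhCYGB. Each treated library was above each untreated one, with untreated library 3 the lowest, as for RELB. The change was 1.01 ± 0.059 on the log2 scale (95% interval 0.89 to 1.14, edgeR adjusted p = 3.26e-10).

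RELA, the p65 subunit that carries the transactivation domain of the canonical dimer (gene ID 5970, chr11:65421067-65430443 in the deposited table), was at 49.1, 47.2 and 44.7 CPM untreated and at 95.1, 96.9 and 99.3 CPM with rhCYGB. The groups were well apart, and their SDs were small, at 2.22 CPM untreated and 2.11 CPM treated. Its log2 fold change of 1.05 ± 0.046 (95% interval 0.95 to 1.15, edgeR adjusted p = 1.36e-11) overlapped the interval of NFKB2.

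NFKB1, the gene of p105 and p50 (gene ID 4790, chr4:103422516-103538459 in the deposited table), moved least. Its values were 52.9, 50.4 and 49.2 CPM untreated and 62.2, 65.9 and 66.1 CPM with rhCYGB. The treated libraries were above the untreated ones, but the step was 0.35 ± 0.048 on the log2 scale (95% interval 0.25 to 0.45, edgeR adjusted p = 7.21e-06), and 66.4% of all genes tested had a smaller log2 fold change. It ranged from 0.17 to 0.39 over the 16 other fits, with an adjusted p of at most 0.0101.

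REL, the lymphoid-associated subunit c-Rel (gene ID 5966, chr2:61108709-61158747 in the deposited table), had 18.4, 18.5 and 18.0 CPM untreated. With rhCYGB it had 23.6, 25.6 and 32.6 CPM. The untreated libraries were nearly equal, and treated library 3 was above the other two. The log2 fold change was 0.57 ± 0.095 (95% interval 0.37 to 0.78, edgeR adjusted p = 5.16e-05). Leaving out 1 library at a time gave 0.43 to 0.68, with the direction and the call kept.

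**Figure D3:**
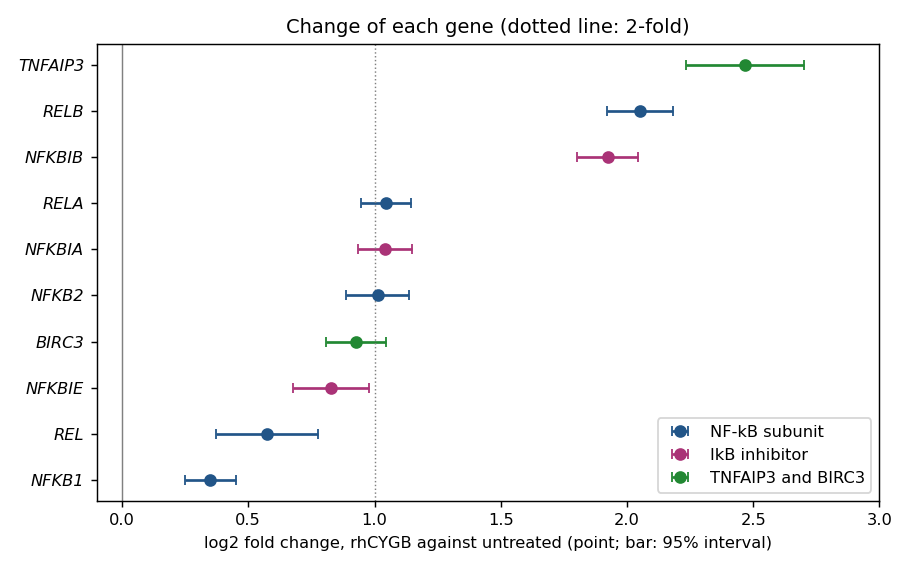
log2 fold change of each gene with rhCYGB (points, with 95% intervals as bars) coloured by role, with a dotted line at 2-fold. TNFAIP3 (2.47), RELB (2.05) and NFKBIB (1.92) have intervals wholly above 2-fold, and NFKB1 (0.35) lies lowest.

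The IkB genes rose as well. NFKBIA, which encodes IkB alpha, the inhibitor that is degraded and resynthesised fastest (gene ID 4792, chr14:35870716-35873960 in the deposited table), was at 177, 168 and 154 CPM untreated and at 349, 323 and 353 CPM with rhCYGB. No treated library came near the untreated range. The log2 fold change was 1.04 ± 0.050 (95% interval 0.93 to 1.15, edgeR adjusted p = 3.76e-11).

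NFKBIB, the gene of IkB beta (gene ID 4793, chr19:39390306-39399534 in the deposited table), had 19.0, 20.7 and 18.0 CPM untreated and 73.1, 72.6 and 73.3 CPM with rhCYGB. The treated libraries lay within 1 CPM of each other. Its change of 1.92 ± 0.056 (95% interval 1.80 to 2.04, edgeR adjusted p = 1.28e-13) was the largest of the IkB genes. NFKBIB overlaps SIRT2 in the deposited positions. SIRT2 had up to 2269 counts and fell by 0.28 on the log2 scale (SE 0.049, edgeR adjusted p = 8.76e-05), and whether the counting used strand is not stated, so reads in the shared stretch cannot be told apart.

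NFKBIE, the gene of IkB epsilon (gene ID 4794, chr6:44225903-44233288 in the deposited table), was at 18.2, 17.5 and 15.4 CPM untreated and at 31.7, 28.4 and 30.5 CPM with rhCYGB. All treated libraries were above all untreated ones. The log2 fold change was 0.83 ± 0.071 (95% interval 0.68 to 0.98, edgeR adjusted p = 3.69e-08), so that the intervals of NFKBIB and NFKBIE were far apart.

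TNFAIP3 encodes A20, a ubiquitin-editing enzyme that ends signalling from TNF and Toll-like receptors (gene ID 7128, chr6:138188396-138204449 in the deposited table). It was at 10.4, 11.2 and 7.55 CPM untreated, from 386, 500 and 308 counts, and at 49.7, 51.1 and 60.2 CPM with rhCYGB, from 1845, 1700 and 2220 counts. The lowest treated library was more than 4 times the highest untreated one. The log2 fold change was 2.47 ± 0.109 (95% interval 2.23 to 2.70, edgeR adjusted p = 1.41e-11), above that of 98.1% of all genes tested.

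BIRC3 encodes cIAP2, a ubiquitin ligase that acts in TNF receptor complexes and keeps NIK low (gene ID 330, chr11:102188215-102210134 in the deposited table). It was at 39.0, 36.3 and 36.6 CPM untreated and at 69.0, 67.2 and 76.3 CPM with rhCYGB. The groups did not overlap, and the log2 fold change was 0.93 ± 0.056 (95% interval 0.81 to 1.05, edgeR adjusted p = 5.30e-10). Its close relative BIRC2, the gene of cIAP1, had 71.6 CPM untreated and 71.0 CPM with rhCYGB (log2 fold change -0.01, edgeR adjusted p = 0.844). In the 4 fits with the other scalings or FPKM, BIRC2 passed the threshold as lower, by up to 0.18 on the log2 scale.

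The genes whose profile over the 6 libraries lay closest to that of TNFAIP3, by Euclidean distance between log2 CPM values centred on the untreated mean, were CASC19 (distance 0.187), DLL1 (0.215) and SNORD14D (0.274). Their log2 fold changes were 2.56, 2.56 and 2.52, and such likeness to TNFAIP3 follows from a distance taken on changes from the untreated mean. Untreated levels were low for CASC19 (17, 21 and 14 counts, mean 0.423 CPM) and SNORD14D (23, 37 and 22 counts, mean 0.661 CPM), and DLL1 was at 4.4 CPM. CASC19 is a long noncoding RNA, DLL1 encodes a Notch ligand and SNORD14D is a small nucleolar RNA within a host gene, whose reads may be shared with it.

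Per transcript length, NFKBIA was the most abundant of the 10 genes in both groups, at 98.8 ± 6.08 FPKM untreated and 181 ± 12.5 FPKM with rhCYGB (SD, n = 3). In untreated cells it was followed by NFKB2 (25.0 ± 2.37 FPKM), RELB (20.2 ± 2.13 FPKM) and RELA (17.5 ± 0.740 FPKM). Then came NFKB1 (11.7 ± 0.357 FPKM), NFKBIB (10.6 ± 0.961 FPKM), NFKBIE (6.77 ± 0.521 FPKM) and BIRC3 (5.05 ± 0.176 FPKM). TNFAIP3 (1.94 ± 0.370 FPKM) and REL (1.53 ± 0.0115 FPKM) were lowest. Libraries of neighbours in this order overlapped for RELB with RELA, NFKB1 with NFKBIB, and TNFAIP3 with REL.

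With rhCYGB the order changed below NFKBIA. RELB was second, at 74.6 ± 1.01 FPKM, ahead of NFKB2 (45.5 ± 1.91 FPKM), NFKBIB (35.1 ± 2.33 FPKM) and RELA (32.3 ± 1.24 FPKM). NFKB1 (13.3 ± 0.507 FPKM), NFKBIE (10.7 ± 0.779 FPKM), TNFAIP3 (9.62 ± 1.18 FPKM), BIRC3 (8.57 ± 0.757 FPKM) and REL (2.04 ± 0.387 FPKM) followed. Neighbours whose libraries overlapped were NFKBIB with RELA, NFKBIE with TNFAIP3, and TNFAIP3 with BIRC3.

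**Figure D4:**
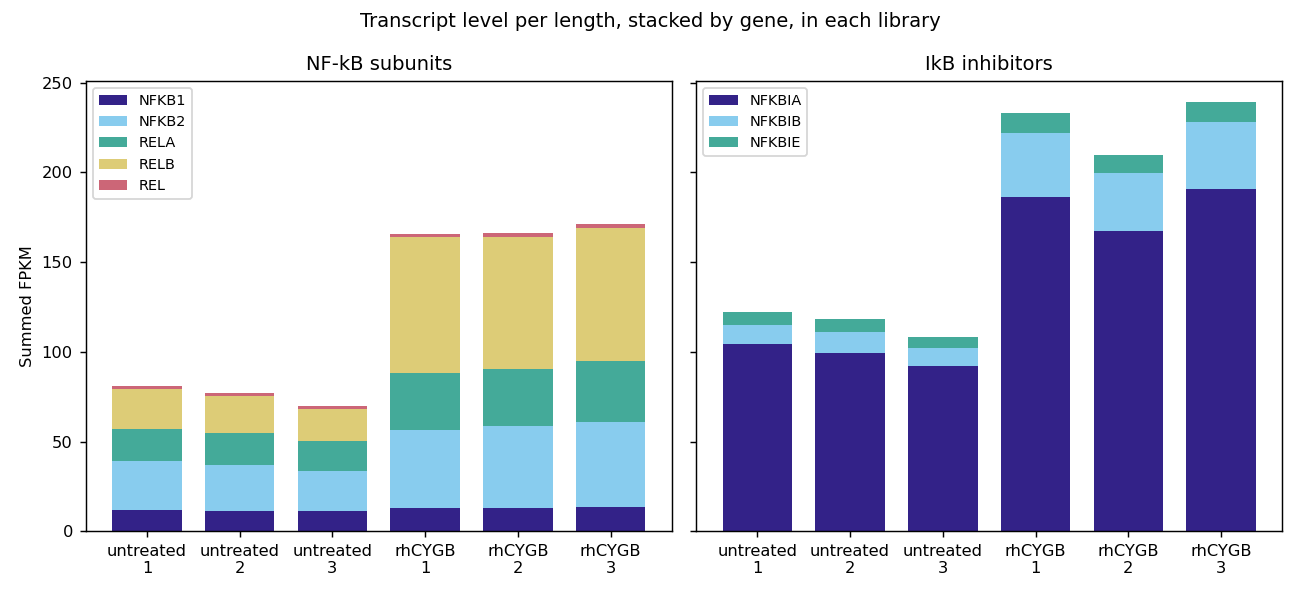
Summed FPKM of the 5 subunit genes and of the 3 IkB genes, stacked by gene, in each of the 6 libraries. The subunit sum goes from 69.9 to 80.8 FPKM untreated to 165.7 to 171.5 FPKM with rhCYGB, with RELB taking the widest band in the treated libraries, and the IkB sum from 108.3 to 122.0 to between 209.7 and 239.0 FPKM.

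RELB made up 27.2, 26.9 and 25.5% of the summed subunit FPKM in the untreated libraries and 45.7, 44.5 and 43.2% in the treated ones. The share of NFKB1 was 15.0, 15.0 and 16.3% untreated and 7.74, 7.95 and 8.07% treated, although its own level rose. The shares of RELB and of NFKB1 did not overlap between the groups. NFKB2 took 32.0 to 33.4% untreated and 26.2 to 27.6% treated, and RELA 22.6 to 24.0% and 18.9 to 19.7%.

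The ratio of the noncanonical genes (NFKB2 and RELB) to the canonical ones (NFKB1, RELA and REL) in summed FPKM was 1.54, 1.51 and 1.35 untreated and 2.56, 2.58 and 2.43 with rhCYGB. It was higher in 3 of 3 treated libraries, by 0.78 on the log2 scale. With 3 libraries against 3 the two-sided exact permutation test cannot go below p = 0.1, the value found (Benjamini-Hochberg adjusted over 3 ratios, 0.15). The grouping follows the usual pairing of these proteins, which were not measured.

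The ratio of the IkB genes to the subunit genes was 1.51, 1.53 and 1.55 untreated and 1.41, 1.26 and 1.39 with rhCYGB. Treated libraries were lower, by 0.18 on the log2 scale (exact permutation p = 0.1, adjusted 0.15). The log2 difference was reversed, at 0.66, without the highest gene on each side, and was -0.037 when counts not divided by length were used. The ratio of NFKBIA to RELA was 5.72, 5.67 and 5.50 untreated and 5.84, 5.33 and 5.65 with rhCYGB. Here the groups overlapped (log2 difference -0.0058, exact permutation p = 0.8, adjusted 0.80), and the difference changed sign when 1 library was left out.

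The transcript table listed 29 transcripts of the 10 genes, of which 22 had enough counts for a test. Higher with rhCYGB by edgeR were 9, lower 0, and 13 did not pass, and at an unadjusted p under 0.05 the counts were 10 and 0. Among all 32577 transcripts tested, 29.9% were called, 15.1% higher and 14.8% lower. The 9 belonged to 8 genes, with 2 for NFKBIB and none for NFKB1 or REL.

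For RELB, NFKBIA, NFKBIE and BIRC3, 1 transcript held all counts of the gene in each library (NM_006509, NM_020529, NM_004556 and NM_001165). NFKB2 had several. Its transcript NM_002502 rose by 1.46 on the log2 scale (SE 0.123, edgeR adjusted p = 0.000579) and took 21.3 to 33.7% of the gene's counts untreated and 34.5 to 40.8% with rhCYGB. For NFKBIB, NM_001369699 changed by 2.25 (SE 0.105, edgeR adjusted p = 7.1e-05), from 37.2 to 50.8% of the gene's counts to 54.0 to 62.3%, and NM_002503 by 1.70 (SE 0.195, edgeR adjusted p = 0.00187). The noncoding NFKBIB transcript NR_040515 went from 15.0 to 22.2% of the counts untreated to 6.33 to 9.77% with rhCYGB, and its own level was not called (edgeR adjusted p = 0.200).

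For other genes the assignment of reads to transcripts was unsteady. The TNFAIP3 transcript NM_001270508 was called higher (log2 fold change 2.63, SE 0.552, edgeR adjusted p = 0.0177), but its share of the gene's counts was 17.8 to 78.6% over the untreated libraries and 25.9 to 51.8% over the treated ones. REL has a pair of listed transcripts of nearly equal length, 11204 and 11108 bases. NM_001291746 had 684, 621 and 735 counts untreated and 874, 0 and 1199 with rhCYGB, while NM_002908 had 0, 210 and 0 counts untreated and 2, 853 and 1 with rhCYGB. In treated library 2 the counts of REL were thus all given to the transcript that had next to none in treated libraries 1 and 3, and the gene total is the steadier measure.

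The rest of the pathway moved in both directions. The counts in each list below are to be read against all genes tested, of which 39.0% were called higher and 38.6% lower. The lists, too, were chosen with earlier results of these data known, so these contrasts only describe chosen sets. Of 18 further inhibitors and IkB-like proteins, 17 were tested, 12 rose, 2 fell and 3 did not pass, with a median log2 fold change of 0.48. TAX1BP1, an adaptor through which A20 acts, went from 103 ± 1.04 to 280 ± 12.4 CPM (log2 fold change 1.44, edgeR adjusted p = 9.42e-14). N4BP1 went from 43.2 ± 2.20 to 82.9 ± 1.68 CPM (0.94, edgeR adjusted p = 7.11e-11) and RNF11, another partner of A20, from 74.4 ± 2.69 to 133 ± 7.10 CPM (0.84, edgeR adjusted p = 2.08e-10). Those that fell were TRAF3, which holds NIK in check, from 58.2 ± 2.09 to 46.5 ± 2.67 CPM (-0.33, edgeR adjusted p = 4.04e-05), and TANK, from 23.5 ± 1.53 to 19.4 ± 1.56 CPM (-0.28, edgeR adjusted p = 0.00285). TNIP3 had 0 counts in all libraries.

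Of 13 ligands of the pathway, 5 were at 0 counts in all libraries and 6 were tested. TNF, the classical inducer of canonical signalling, had 27, 29 and 30 counts untreated and 205, 196 and 236 with rhCYGB (0.702 ± 0.0483 and 5.94 ± 0.444 CPM, log2 fold change 3.08, edgeR adjusted p = 3.52e-10). IL1A had 24, 59 and 27 counts untreated and 218, 144 and 215 with rhCYGB (log2 fold change 2.59, edgeR adjusted p = 1.48e-07). IL1B went from 4.11 ± 0.680 to 10.8 ± 0.347 CPM (1.40, edgeR adjusted p = 5.63e-08). In all 4 ligands rose, 1 fell and 1 did not pass. The 1 that fell was TNFSF10, the death ligand TRAIL, with 98, 124 and 129 counts untreated and 4, 0 and 8 with rhCYGB (log2 fold change -4.64, edgeR adjusted p = 1.04e-07).

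Of 18 receptors 15 were tested, with 3 higher, 8 lower and 4 not called, and a median log2 fold change of -0.41. TNFRSF12A (61.1 ± 5.59 to 177 ± 2.96 CPM, log2 fold change 1.53, edgeR adjusted p = 1.13e-12) and LTBR (193 ± 3.68 to 382 ± 1.72 CPM, 0.99, edgeR adjusted p = 9.93e-13), receptors that can feed the noncanonical branch, rose. CD40 (7.58 and 7.80 CPM, edgeR adjusted p = 0.737) and TNFRSF11A (0.521 and 0.467 CPM, edgeR adjusted p = 0.759), of the same kind, were not called. IL1RAP, the shared chain of interleukin 1 receptors, rose as well (4.21 ± 0.218 to 8.42 ± 0.304 CPM, 1.00, edgeR adjusted p = 8.83e-07). The interleukin 1 receptor itself, IL1R1, fell from 127 ± 8.15 to 35.9 ± 1.93 CPM (-1.83, edgeR adjusted p = 2.01e-13) and IL18R1 from 3.17 ± 0.442 to 0.422 ± 0.0860 CPM (-2.91, edgeR adjusted p = 3.92e-08). The receptors of TNF fell too. TNFRSF1A went from 266 ± 6.19 to 200 ± 12.3 CPM (-0.41, edgeR adjusted p = 4.83e-07) and TNFRSF1B from 16.6 ± 0.242 to 5.95 ± 0.791 CPM (-1.48, edgeR adjusted p = 2.24e-09).

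TLR4, the receptor of bacterial lipopolysaccharide, and its partner LY96 had 0 counts in each of the 6 libraries, which allows up to 0.0902 CPM in a library. Their co-receptor CD14 fell from 4.10 ± 0.0573 to 0.225 ± 0.0569 CPM (log2 fold change -4.18, edgeR adjusted p = 4.02e-10). Of the other Toll-like receptors listed, TLR1 (0.391 to 0.167 CPM, edgeR adjusted p = 0.0307), TLR5 (0.905 to 0.371 CPM, edgeR adjusted p = 0.00462) and TLR6 (2.61 to 1.38 CPM, edgeR adjusted p = 0.00178) fell. TLR2 (0.397 and 0.359 CPM, edgeR adjusted p = 0.806) and TLR3 (1.08 and 0.930 CPM, edgeR adjusted p = 0.517) were not called.

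Of 25 adaptors and kinases, 10 were higher, 8 lower and 7 not called, beside 39.0% higher and 38.6% lower over all genes tested. Their median log2 fold change was 0.0073. The lower count was 6 to 12 over the 16 other fits and the higher count 9 or 10. TICAM1 went from 24.2 ± 1.46 to 73.6 ± 0.906 CPM (1.61, edgeR adjusted p = 4.76e-13), IRAK2 from 8.91 to 24.6 CPM (1.46, edgeR adjusted p = 8.51e-11) and TAB3 from 37.5 to 96.0 CPM (1.36, edgeR adjusted p = 9.69e-12). MYD88, the adaptor of most Toll-like receptors and of the interleukin 1 receptor, fell from 13.4 ± 0.600 to 2.34 ± 0.623 CPM (-2.51, edgeR adjusted p = 5.40e-10), IKBKE from 6.83 to 1.23 CPM (-2.47, edgeR adjusted p = 2.82e-09) and IRAK4 from 4.22 to 2.54 CPM (-0.74, edgeR adjusted p = 0.00238).

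Of the 3 genes of the IKK complex, 1 was called. IKBKB, the kinase of the canonical branch, had a log2 fold change of 0.30 (35.4 ± 0.577 to 43.6 ± 3.03 CPM, edgeR adjusted p = 0.000174), which did not pass in either FPKM fit (limma adjusted p of 0.0902 and 0.0862). CHUK (25.1 and 26.0 CPM, edgeR adjusted p = 0.416) and IKBKG (14.8 and 15.3 CPM, edgeR adjusted p = 0.595) were not called, and the sign of both differed between scalings. MAP3K14, which encodes NIK, had 47.4 ± 7.32 CPM untreated and 39.9 ± 3.81 CPM with rhCYGB. Its groups overlapped, and its call as lower (-0.25, edgeR adjusted p = 0.0248) was lost with DESeq2 (adjusted p = 0.0977) and without untreated library 1 or 2 or treated library 1 or 2 (adjusted p 0.0782 to 0.135).

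Of 37 targets that NF-kB is known to induce, 26 were tested, 15 rose, 5 fell and 6 did not pass. Their median log2 fold change was 0.73, and 11 genes were up by at least 2-fold. Over all genes tested, 39.0% were called higher, 38.6% lower and 12.4% higher by at least 2-fold. The neutrophil chemokines led. CXCL3 went from 4.63 ± 0.298 to 122 ± 1.51 CPM (4.71, edgeR adjusted p = 5.68e-17), CXCL8 from 80.6 ± 8.96 to 1295 ± 34.5 CPM (4.01, edgeR adjusted p = 3.33e-16) and CXCL2 from 14.8 ± 2.30 to 92.5 ± 4.89 CPM (2.64, edgeR adjusted p = 3.00e-13). Targets that fell included CD83 (13.4 to 5.29 CPM, -1.34, edgeR adjusted p = 1.80e-07), the complement component C3 (1.68 to 0.922 CPM, -0.86, edgeR adjusted p = 0.00606) and CFLAR, an inhibitor of caspase-8 (158 to 89.9 CPM, -0.81, edgeR adjusted p = 4.82e-11). SOD2 was lower too (116 to 92.0 CPM, -0.33, edgeR adjusted p = 2.81e-06), and so was CSF1 (89.5 to 75.9 CPM, -0.24, edgeR adjusted p = 0.000914). At 0 counts in all libraries were 6 targets: IL6, CCL2, CSF2, VCAM1, BCL2A1 and PTGS2. CXCL10, CCL20, ICAM1, MMP9 and SAA1 had too few counts for a test. BIRC2, not called, was counted here and among the adaptors and kinases.

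**Figure D5:**
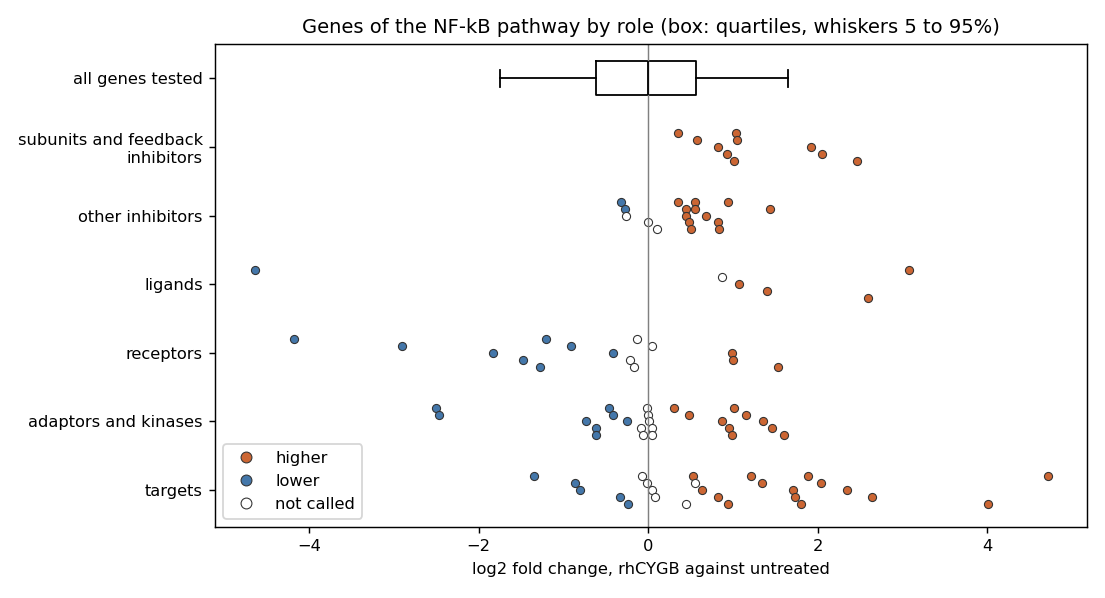
log2 fold change with rhCYGB of single genes (points, orange higher, blue lower, white not called) in 6 groups of the NF-kB pathway, below a box of all genes tested (quartiles, whiskers from the 5th to the 95th percentile). The subunits and feedback inhibitors all lie right of 0, whereas receptors have a median of -0.41 and targets reach from -1.34 to 4.71.

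Single markers of other cell types differed between the groups, and the summed level of each list rested mostly on 1 of them. Of 8 leukocyte markers 2 were tested. CD68 rose from 36.0 to 71.4 CPM (edgeR adjusted p = 5.81e-11) and CD14 fell, as above, so that the list summed to 38.5 to 42.2 CPM untreated and 70.6 to 72.8 CPM with rhCYGB, with PTPRC, CD3E and MS4A1 among those at 0 counts in every library. Of 8 stellate cell or fibroblast markers 3 were tested and 2 fell. The sum of 148 to 159 CPM untreated and 11.5 to 13.6 CPM treated was mostly COL1A2 (142 to 6.86 CPM, edgeR adjusted p = 4.01e-16), whereas ACTA2 was not called (5.61 and 5.30 CPM, edgeR adjusted p = 0.548), and DCN and LUM were at 0. Of 6 endothelial markers 2 were tested, CDH5, which fell from 117 to 12.2 CPM (edgeR adjusted p = 1.22e-14), and ESAM, which rose from 1.59 to 3.40 CPM (edgeR adjusted p = 0.000146). The endothelial sum was 111 to 123 CPM untreated and 14.3 to 16.5 CPM treated, with PECAM1 and KDR at 0. The 7 epithelial markers summed to 3864 to 4094 CPM untreated and 2968 to 3174 CPM treated, with KRT8, KRT19 and MUC1 lower and KRT18 not called (1648 and 1694 CPM, edgeR adjusted p = 0.315). The part of these markers in the results was not tested. These are values of whole cultures, in which fewer cells of one state and less RNA per cell cannot be told apart.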

How the data were processed

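Libraries were made by the authors with a kit that marks strand and were read on a NovaSeq instrument. The submitters' processing notes name FastQC 0.11.7, HISAT2 2.1.0 and StringTie 2.1.3b, and list the build mm10 (a mouse build, for human cells). The files name no build, and positions of the 10 genes in them did not overlap those of GRCh38. The authors deposited read counts of genes and transcripts, which are whole numbers and not normalized. The authors' FPKM values, deposited beside them, are scaled to transcript length and depth. The TPM columns deposited by the authors (6 per table) were not used.

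All 6 libraries entered 1 fit per table with edgeR 4.0.16 in R 4.3.3 (filterByExpr, TMM, quasi-likelihood test, no block), and p-values were Benjamini-Hochberg adjusted over the 14728 genes or 32577 transcripts tested. A call is an adjusted p under 0.05. Fits were tested on simulated data in which 200 genes changed, far fewer than were called here. That setting could not test the scaling of libraries when most genes move. Ratios of summed FPKM were compared by a two-sided exact permutation test. The study does not state its test for genes. Alternatives were DESeq2 1.42.0 (size factors, Wald test), upper-quartile and total-count scaling, limma 3.58.1 on log2(FPKM + 0.1) or log2(FPKM + 1), omission of the filter, 10 counts in every sample, counts summed from transcripts, a block and leaving out each library. Libraries of a group differed by more than counting error (chi-square over degrees of freedom 4.67 to 6.61), so none was a copy. Without molecular identifiers, floors cover counting error only.

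The genes and lists were chosen with earlier results of these data known. Besides the 10 genes, the text names, per list, up to 3 called, non-overlapping genes with the largest rise and 3 with the largest fall, genes at 0, TLR4, LY96, IKBKB, IKBKG, CHUK, MAP3K14, BIRC2 and TRAF3, and the 3 genes most like TNFAIP3. SIRT2, CD40, TNFRSF11A, TNFRSF1A, TNFRSF1B, the other Toll-like receptors and cell type markers were named after their values were seen. So were SOD2, CSF1 and the targets with too few counts for a test. Promoter sequences are RefSeq's (GRCh38.p14). Protein sequences were not analysed here.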

Additional observations from a re-analysis of the deposited data

How the results depend on the processing

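Each of the 10 genes kept its direction and its call in all 16 other fits. Ranges of the log2 fold change were 0.17 to 0.39 for NFKB1, 0.25 to 0.68 for REL, 0.59 to 0.87 for NFKBIE, 0.66 to 0.96 for BIRC3, 0.84 to 1.07 for NFKB2, 0.85 to 1.08 for RELA, 0.87 to 1.09 for NFKBIA, 1.64 to 1.98 for NFKBIB, 1.84 to 2.12 for RELB and 1.86 to 2.59 for TNFAIP3. The count of the 10 that were at least 2-fold higher, 6, was 3 with upper-quartile scaling, total counts, log2(FPKM + 1) and log2(FPKM + 0.1), and 4 to 6 on leaving out 1 library (4 without untreated library 3). Over all genes, log2(FPKM + 1) gave 805 higher and 1172 lower by 2-fold, against 1833 and 2165. With at least 10 counts in every sample, the count of ligands that fell was 0, as TNFSF10 was removed. BIRC2 changed sign without untreated library 2 (0.022) and without treated library 2 (0.033), in a leave-one-out range of -0.057 to 0.033. CHUK changed sign with upper-quartile scaling (-0.092), total counts (-0.12), log2(FPKM + 1) (-0.099) and log2(FPKM + 0.1) (-0.11), as did IKBKG (-0.098, -0.12, -0.099 and -0.11), none of them past the threshold.

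The log2 difference of the ratio of IkB genes to subunits was -0.037 from counts and 0.66 without the highest gene on each side. The noncanonical to canonical difference was 0.65 in that setting. The NFKBIA to RELA difference was 0.0055 without untreated library 1 and 0.030 without treated library 2, in a leave-one-out range of -0.036 to 0.030. Apart from the constructions named, the cause was not tested.

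Same-numbered libraries did not deviate together (correlations -0.048, 0.0072 and 0.0055), so no effect shared by number was seen. These values cannot show whether the libraries were paired by design, which the labels do not say. With the replicate number as a block, 10 of the 10 genes were still higher, 6 by 2-fold, and 5716 genes were called higher and 5635 lower.

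With 3 libraries per group the exact tests of ratios cannot pass the threshold. Genes with few counts, such as TNFSF10 in the treated libraries, and the assignment of reads between transcripts of REL and TNFAIP3 limit those values. Genes read against an unnamed build and annotation could not be recounted here.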
